A study of Bos taurus with 12 samples.

Results

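The genes described here handle calcium in the sarcoplasmic reticulum of muscle. They comprise the pump inhibitor sarcolipin (SLN), the calcium pumps ATP2A1 and ATP2A2, the voltage sensor subunit CACNA1S, the release channel RYR1, the junctional proteins JPH1, JPH2 and TRDN, and the calsequestrins CASQ1 and CASQ2. They were taken by gene name from the expression table and from the 2 lists of m6A peaks, and 9 of the 10 had a row among the 18436 genes of the table. TRDN had a row without a symbol and was found by its NCBI gene number, the other 8 were found by name, and JPH2 was not analysed here. The genes were chosen by their input FPKM in DM against GM as well as by function, with SLN already known to show the highest rise in these libraries, so their differences between groups are a description and carry no test. In the peak lists, 16 of 19739 peaks of the first group and 15 of 20790 of the second were annotated to these genes.

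The study compared primary muscle cells of newborn Qinchuan cattle, isolated from longissimus dorsi (the methods name 1 animal), before and after myogenic differentiation. GM cells were proliferating myoblasts kept in growth medium with 20% fetal bovine serum and taken at 80% confluence. DM cells were myotubes taken after 4 days in differentiation medium with 2% horse serum at 100% confluence, so medium, serum, confluence and time changed together and cannot be told apart. Each group had 3 input libraries, which gave FPKM per gene (fragments per kilobase of transcript, scaled to the mapped fragments of the library), and 3 libraries immunoprecipitated (IP) for N6-methyladenosine (m6A), which entered 1 pooled peak list per group. The study calls the 3 libraries of a group biological replicates, but the sources do not tie them to separate animals. The SD and every p-value below thus measure the spread between these samples, which may be technical.

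In skeletal muscle the sarcoplasmic reticulum stores calcium and releases it to start contraction. Depolarisation of the T-tubule moves the voltage sensor CACNA1S, which opens the release channel RYR1 at junctions held together by junctophilins, while calsequestrin, anchored there by triadin, buffers calcium inside the store. The pumps then return calcium to the store, and small membrane peptides such as sarcolipin and phospholamban lower their activity. RYR1 and CASQ1 are forms of skeletal muscle and ATP2A1 is that of fast fibres, whereas CASQ2 and ATP2A2 are also forms of heart and slow muscle. The ATP2A2 row holds 4 transcripts, and the FPKM ratios below are not a measure of fibre type.

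Muscle lineage and fibroblast markers were both present in both groups. All 9 muscle lineage markers were detected, their summed FPKM ranging from 1362 to 1520 in GM and from 2154 to 2202 in DM. CKM, MYH3 and TNNC2 were called higher and MYF5, PAX7 and MYOD1 lower in DM, where a gene was called if limma gave p under 0.05 together with a difference over 1.5-fold, both on log2(FPKM + 1). Differentiation genes were already present in GM, where MYOG averaged 197 FPKM and MYH3 273 FPKM. MYOG (243 FPKM in DM), MYMK (41.1 FPKM in GM and 47.3 in DM) and DES were not called. Fibroblast markers were high in both groups (sum of 7 markers, 10280 to 10430 FPKM in GM and 11630 to 12200 in DM), led by COL1A1 and COL3A1, and none of the 7 was called. The summed FPKM of 4 matched pericyte and smooth muscle markers was 2246 to 2719 in GM and 1811 to 2085 in DM, and sums stayed under 3 FPKM for adipocyte, endothelial, immune and cardiomyocyte markers. No matched marker was at 0 in all 6 libraries. The part of the fibroblast and smooth muscle signal in the results below was not tested. In these bulk samples, fewer cells of a type and less RNA per cell cannot be told apart.

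By their means, 8 of the 9 genes were higher in DM and CASQ1 was lower. SLN, CASQ2, RYR1, JPH1 and ATP2A1 were past both thresholds of a call, as 4.90% of the 12302 tested genes were in that direction (11.9% in either direction), and no member was called lower, against a background of 6.97%. The 3 libraries of one group lay entirely above those of the other for all 9 genes, which was so for 54.1% of all tested genes. The median log2 difference of the members was 0.74, beside -0.05 for all tested genes, and nothing is read from these counts because the choice of genes used the same contrast. Log2 differences here are DM minus GM on the log2(FPKM + 1) scale, which understates the change of genes near or under 1 FPKM. Nearest to the fold threshold (a log2 difference of 0.58) were ATP2A1 inside it at 0.74 and TRDN and CACNA1S outside it, both at 0.43. These last genes were past it with a pseudocount of 0.1 (TRDN 0.84, CACNA1S 0.65) and on TPM (0.72 and 0.65), which raised the members called higher to 7 while 6.74% and 7.88% of all tested genes were called higher under those settings.

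**Figure D1:**
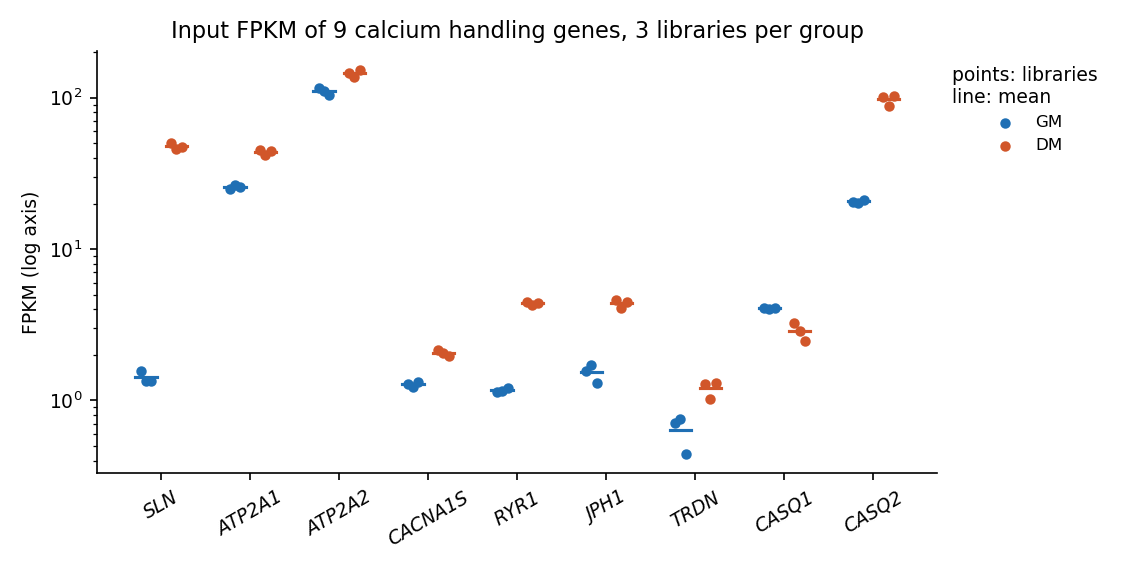
FPKM of the 9 calcium handling genes on a log axis, with blue points for the 3 GM input libraries, orange points for the 3 DM input libraries and a line at each mean. The groups do not overlap for any gene, SLN moves from 1.42 to 47.7 FPKM, and only CASQ1 lies lower in DM.

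SLN (ENSBTAG00000048585, chr15:17267316-17271854 of ARS-UCD1.2, minus strand) encodes sarcolipin, the small peptide that lowers calcium uptake by the pumps. It stood at 1.57, 1.34 and 1.35 FPKM in the GM libraries and at 49.9, 46.1 and 47.0 FPKM in the DM libraries. The lowest DM library was thus far above the highest GM library, and the mean moved from 1.42 ± 0.131 (SD, n = 3) to 47.7 ± 2.00 FPKM, a ratio of 33.6. The log2 difference of 4.33 was the highest of the 12302 tested genes. By level, SLN ranked 10784th of these genes in GM and 1223rd in DM.

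The 4 tested genes whose libraries followed SLN most closely, by Euclidean distance over the 6 libraries of log2(FPKM + 1) from the GM mean, were C1S, ENSBTAG00000054894, ENSBTAG00000050008 and MEF2C. C1S, a complement protease, moved from 4.03 ± 0.413 to 50.7 ± 1.19 FPKM at a distance of 1.70. MEF2C, a muscle transcription factor, moved from 7.79 ± 0.275 to 70.1 ± 1.64 FPKM at a distance of 2.29. The 2 genes without a symbol lay at distances of 2.07 and 2.22. A distance of this kind is set mainly by the size of the difference between groups, and 6 libraries in 2 groups say little beyond it.

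The pumps were expressed at far higher levels than SLN in GM. ATP2A2 (chr17:54211210-54267854, plus strand), the SERCA2 pump, had the highest level of the 9 genes in both groups, with 116, 111 and 104 FPKM in GM and 146, 137 and 153 FPKM in DM. Its DM libraries all lay above its GM libraries, but the ratio of means was 1.31 (110.4 ± 6.17 to 145 ± 8.02 FPKM) and the log2 difference of 0.39 fell short of a call. ATP2A1 (chr25:25929240-25946430, minus strand), the SERCA1 pump of fast fibres, had 25.1, 26.4 and 25.7 FPKM in GM and 45.1, 41.6 and 44.5 FPKM in DM. The groups did not overlap, and the ratio of means was 1.70 (25.7 ± 0.628 to 43.7 ± 1.87 FPKM). ATP2A3, the SERCA3 pump, stayed at 0.139 ± 0.0532 FPKM in GM and 0.0546 ± 0.0238 FPKM in DM and was below the filter of a mean of 0.5 FPKM.

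Within the pump family, ATP2A1 made up 17.8%, 19.1% and 19.8% of the summed pump FPKM in GM and 23.6%, 23.3% and 22.6% in DM. All 3 DM shares were above the GM shares, yet ATP2A2 remained at 3.32 ± 0.103 times ATP2A1 in DM, against 4.30 ± 0.297 times in GM. The balance of pump to inhibitor moved further. The FPKM of ATP2A1 and ATP2A2 together was 90.0, 103 and 96.3 times that of SLN in the GM libraries and 3.82, 3.86 and 4.20 times in the DM libraries. SLN was at 0.0552 ± 0.00637 of the ATP2A1 level in GM and at 1.09 ± 0.0301 of it in DM. These are ratios of transcript level per length and not of protein.

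**Figure D2:**
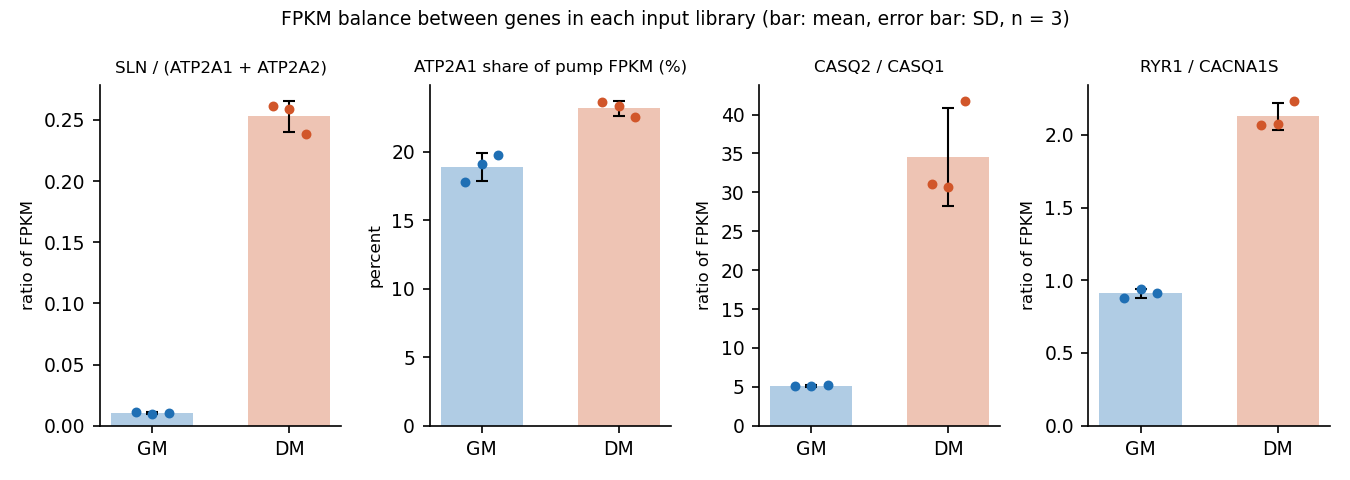
Ratios of FPKM between genes in each input library: SLN over the sum of ATP2A1 and ATP2A2, the ATP2A1 share of summed pump FPKM in percent, CASQ2 over CASQ1, and RYR1 over CACNA1S; bars are means, error bars SD of 3 libraries and points the libraries. SLN over the pumps moves from 0.0104 to 0.253 and CASQ2 over CASQ1 from 5.10 to 34.5, while the ATP2A1 share moves from 18.9% to 23.2%.

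The calsequestrins, which bind calcium inside the store, went in opposite directions. CASQ2 (chr3:27540536-27611173, plus strand), a form of heart and slow muscle, had 20.6, 20.3 and 21.2 FPKM in GM and 102, 88.5 and 103 FPKM in DM. The second DM library was the lowest of its group and still far above the highest GM library, and the mean moved from 20.7 ± 0.461 to 97.5 ± 7.85 FPKM, a ratio of 4.71. CASQ1 (chr3:9474927-9484746, minus strand), a form of skeletal muscle, had 4.09, 3.99 and 4.09 FPKM in GM and 3.26, 2.88 and 2.46 FPKM in DM. Every DM library was below every GM library, but the ratio of means was 0.706 (4.06 ± 0.06 to 2.87 ± 0.404 FPKM) and the log2 difference of -0.39 was no call. CASQ2 was 5.10 ± 0.0717 times CASQ1 in GM and 34.5 ± 6.28 times in DM, where the third library gave the highest ratio, 41.8. Beside these values, 4 matched cardiomyocyte markers (MYL7, TNNI3, MYBPC3 and MYH6) summed to 0.574 to 0.695 FPKM in GM and 1.03 to 1.21 FPKM in DM.

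The excitation and release genes had low levels in both groups. CACNA1S (chr16:79599108-79660665, minus strand), the voltage sensing subunit of the T-tubule calcium channel, had 1.29, 1.23 and 1.32 FPKM in GM and 2.16, 2.07 and 1.96 FPKM in DM. The groups were apart at a ratio of 1.61, with a log2 difference of 0.43. RYR1 (chr18:48237459-48365215, plus strand), the channel through which the store empties, had 1.132, 1.155 and 1.203 FPKM in GM and 4.47, 4.30 and 4.38 FPKM in DM. Its libraries varied least of the 9 genes in DM, and its mean moved from 1.16 ± 0.0363 to 4.39 ± 0.0873 FPKM, a ratio of 3.77 and a log2 difference of 1.32. RYR1 was at 0.910 ± 0.0323 of the CACNA1S level in GM and at 2.13 ± 0.0939 of it in DM.

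Of the junctional genes, JPH1 (chr14:37502881-37595533, minus strand), which ties the T-tubule to the store, had 1.57, 1.72 and 1.31 FPKM in GM and 4.63, 4.09 and 4.45 FPKM in DM. The 3 DM libraries were all above 4 FPKM, and the ratio of means was 2.87 (1.53 ± 0.21 to 4.39 ± 0.279 FPKM). TRDN (ENSBTAG00000038849, chr9:27700837-27786164, plus strand), which anchors calsequestrin at the release channel, had 0.710, 0.759 and 0.441 FPKM in GM and 1.29, 1.02 and 1.30 FPKM in DM. It had the lowest level of the 9 genes in both groups and the widest relative spread in GM, a coefficient of variation of 26.9%. Its ratio of means was 1.89, while its log2 difference was 0.43 with the constant of 1 added to values of this size.

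Ordered by mean level in GM, the genes ran from ATP2A2 through ATP2A1, CASQ2, CASQ1, JPH1, SLN, CACNA1S and RYR1 to TRDN. JPH1 (1.31 to 1.72 FPKM) and SLN (1.34 to 1.57 FPKM) overlapped there and had no order beyond their spread, while the other neighbours did not overlap. In DM the order was ATP2A2, CASQ2, SLN, ATP2A1, JPH1, RYR1, CASQ1, CACNA1S and TRDN. JPH1 (4.09 to 4.63 FPKM) and RYR1 (4.30 to 4.47 FPKM) overlapped there, and every other pair of neighbours was separated, SLN lying just above ATP2A1.

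The other genes of calcium handling were counted from 7 lists, of which 42 of 47 genes were matched and 34 passed the filter. Of these 34, 5 were called higher and 2 lower in DM, beside backgrounds of 4.90% and 6.97%, and their median log2 difference was 0.11. At a Benjamini-Hochberg adjusted p under 0.05 without a fold threshold, 14 were higher and 7 lower, where the shares of all tested genes were 16.1% and 26.7%. On TPM, 8 were called higher and 1 lower, beside 7.88% and 6.44% of all tested genes on that scale. With a pseudocount of 0.1, 7 were called higher and 2 lower, beside 6.74% and 9.63%. The lists were chosen with earlier results of these data known, so these counts are a description.

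Among the other pumps and pump regulators, 2 of 4 tested genes rose and none fell by the call, and 3 were higher at a limma adjusted p under 0.05. HRC, the histidine-rich calcium binding protein of the store, rose from 1.46, 1.73 and 2.14 FPKM in GM to 6.58, 5.99 and 5.68 FPKM in DM. Its groups were well apart (log2 difference 1.36 ± 0.10 SE, limma adjusted p = 2e-05). MRLN, which encodes the pump inhibitor myoregulin, rose from 2.26 ± 0.719 to 3.83 ± 0.109 FPKM (log2 difference 0.59, adjusted p = 0.015 by limma). That call rested on single libraries, since the difference was 0.39 without GM replicate 1, the lowest of its group, and 0.58 without DM replicate 1, neither of them past the fold threshold. Phospholamban (PLN), another pump inhibitor, was at 0.778 ± 0.137 FPKM in GM and 1.36 ± 0.334 FPKM in DM with a log2 difference of 0.40, not a call, although it was past the threshold on TPM (0.66) and with a pseudocount of 0.1 (0.73). The level of SLN was 1.86 ± 0.32 times that of PLN in GM and 36.1 ± 6.85 times in DM. PLN, CAV3, FKBP1A, ASPH, ATP2A3, RYR2 and RYR3 were named after their values were seen.

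Of 10 tested release channel and junction genes, 2 rose and none fell by the call, while 5 were higher and 3 lower at a limma adjusted p under 0.05. S100A1, a calcium binding protein that binds the release channel, rose from 3.22 ± 0.701 to 9.62 ± 0.76 FPKM (log2 difference 1.34, limma adjusted p = 5.3e-05). SYPL2, the triad protein mitsugumin 29, rose from 3.08 ± 0.426 to 7.86 ± 0.494 FPKM (log2 difference 1.12, limma adjusted p = 3.2e-05). FKBP1A, which binds and steadies the release channel, stood at 404 ± 21.8 FPKM in GM and 271 ± 5.19 FPKM in DM. Its log2 difference of -0.57 missed the fold threshold and passed it at -0.62 without GM replicate 3 and at -0.59 without DM replicate 3. ASPH, whose locus also encodes junctin, had a log2 difference of -0.30. The other ryanodine receptors were scarce: RYR3 averaged 0.462 FPKM in GM and 0.408 FPKM in DM, and RYR2 stayed under 0.02 FPKM in every library.

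Of 3 tested voltage sensor subunits, CACNG1 rose from 1.38 ± 0.332 to 3.34 ± 0.289 FPKM (log2 difference 0.88, limma adjusted p = 4.4e-04). Of 4 tested T-tubule and triad membrane genes, SPEG, a kinase of the triad, fell from 6.08 ± 0.3 to 3.71 ± 0.254 FPKM (log2 difference -0.59, limma adjusted p = 2.7e-04). The SPEG call was lost at -0.54 with median-of-ratios size factors, on TPM and without DM replicate 2, and at -0.55 without GM replicate 3. CAV3, the muscle caveolin of the forming T-tubule, had 44.6 ± 7.69 FPKM in GM and 63.1 ± 2.65 FPKM in DM, a log2 difference of 0.51 that became a call at 0.64 without GM replicate 3 and on TPM. Of 4 tested ER calcium buffers and IP3 receptors, CALR (calreticulin), the general calcium buffer of the ER, fell from 794, 758 and 781 FPKM to 425, 475 and 436 FPKM. Its groups did not overlap (log2 difference -0.80 ± 0.06 SE, limma adjusted p = 1.7e-05).

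None of the 5 store-operated entry genes and none of the 4 tested surface extrusion and buffer genes was called, and 2 and 1 of them had a limma adjusted p under 0.05. STIM2, the ER calcium sensor with the highest level among the former, had 14.2 ± 0.946 FPKM in GM and 17.1 ± 0.758 FPKM in DM. ATP2B1, the plasma membrane pump with the highest level among the latter, had 21.7 ± 1.66 FPKM in GM and 24.0 ± 1.86 FPKM in DM.

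**Figure D3:**
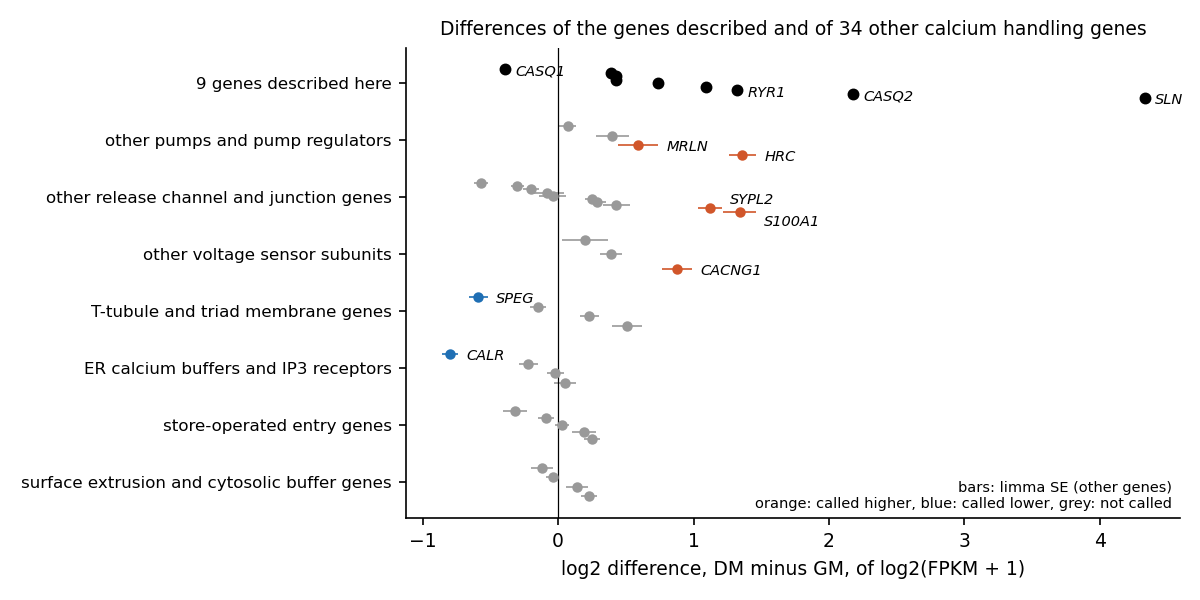
Log2 difference, DM minus GM, of log2(FPKM + 1) for the 9 genes described (black, top line) and for the 34 other tested calcium handling genes by list, with limma SE as bars. Orange marks the 5 genes called higher, blue the 2 called lower (SPEG and CALR) and grey the rest, and SLN at 4.33 lies apart from all others.

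The IP libraries did not enter the expression contrast, whereas the input libraries entered both. Each peak had 1 value per group from pooled libraries, its fold enrichment (IP over input within the peak), so no peak difference has an error or a test. In GM, 8 of the 9 genes had a peak, beside 70.9% of all tested genes, and in DM all 9 had one, beside 78.7%. TRDN was the gene with a DM peak only. The members' median fold enrichment was 3.88 in GM and 3.29 in DM, beside 3.27 and 3.38 over the whole lists, and the 9 genes lay on both sides of these medians. At a false discovery rate under 0.05, 16 of 16 GM peaks and 14 of 15 DM peaks remained. The exception was the CACNA1S peak in DM. With the rate under 0.001, 13 peaks remained in either group, and the genes keeping any fell to 6 in GM and 7 in DM. CASQ1 and CACNA1S then had none left. Requiring a fold enrichment of at least 2 instead left 7 genes in GM, without CASQ1, and 7 in DM, without CASQ1 and CACNA1S.

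**Figure D4:**
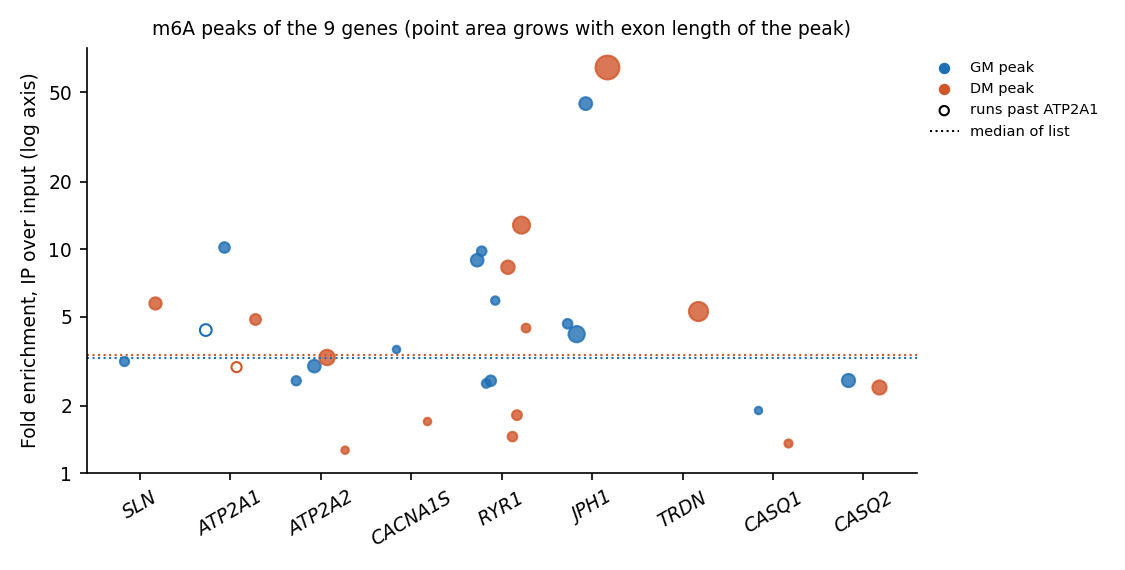
Fold enrichment of each m6A peak of the 9 genes on a log axis, blue for GM and orange for DM, with point area growing with the exon bases of the peak and dotted lines at the medians of the whole lists (3.27 and 3.38). JPH1 carries the highest values, 44.6 in GM and 65 in DM, and open points are the peaks that run past the end of ATP2A1.

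The SLN peak covered more of the transcript in DM. In GM it was a single block of 292 bases in the 3′ UTR (chr15:17267345-17267636) with a fold enrichment of 3.17. In DM it ran from the first to the last base of the gene in 2 exon blocks of 586 and 84 bases, 670 bases in all, with a fold enrichment of 5.73. The GM peak lay wholly within the DM peak but covered only 43.6% of it. The ratio of 1.81, past the 1.5 that 14.2% of the 10239 one-to-one peak pairs exceeded in that direction, thus compares unlike stretches. The input FPKM of SLN differed 33.6-fold between the groups, and its part in the length and enrichment of the peak was not tested.

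The pumps had peaks at the 3′ end (ATP2A1) and from the start of the gene onwards (ATP2A2). A 3′ UTR peak of ATP2A1 (chr25:25929240-25930393 in GM) had a fold enrichment of 10.2 over 449 bases in GM and of 4.89 over 479 bases in DM, a ratio of 0.479. A second peak annotated to ATP2A1, at 4.36 in GM and 2.98 in DM, ran 537 and 329 bases past the end of the gene. It ended at the last base of RABEP2 (chr25:25917049-25929296), which lies on the opposite strand and overlaps ATP2A1 by 57 bases. RABEP2 had 5.34 ± 0.488 FPKM in GM and 6.54 ± 0.246 FPKM in DM. In both groups this peak lay wholly within RABEP2 and shared only 57 bases with ATP2A1, so by position it belongs with RABEP2. It stays in the 16 GM and 15 DM member peaks, their fold enrichment medians and their exon bases. In ATP2A2, 2 GM peaks of 301 and 720 bases (fold enrichment 2.59 and 3.01) both lay within 1 DM peak of 1169 bases in 9 blocks (3.29), which began at the first base of the gene. A DM peak of 121 bases in the ATP2A2 3′ UTR had a fold enrichment of 1.27, among the lowest 2.89% of the DM list, and partly overlapped the unnamed gene ENSBTAG00000052539 on the same strand.

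Both calsequestrins had low enrichment. The CASQ2 peak ended in the 3′ UTR and went from 804 bases at 2.61 in GM to 953 bases at 2.42 in DM, a ratio of 0.927 while the FPKM ratio was 4.71. The CASQ1 peaks were at different places, in exon 1 of 11 in GM (119 bases, 1.92) and in the 3′ UTR in DM (179 bases, 1.37), and did not overlap.

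RYR1 had 5 peaks in each group. The peak at exon 35 of 102 had a fold enrichment of 8.93 in GM and 8.31 in DM, and the peak at exons from 100 onwards had 5.90 and 4.45. Between them, 3 GM peaks at exons 89 and 90 (9.80, 2.52 and 2.59) all lay within 1 DM peak of 1470 bases. That DM peak began at exon 88 and had a fold enrichment of 12.8, above 94.8% of the DM list. Of the 3 GM peaks, the peak at 9.80 had the weakest support, a log10 false discovery rate of -2.14 against -4.30 and -3.83. DM peaks at exons 53 (1.46) and 74 (1.82) overlapped no GM peak, with 8.22% and 18.9% of DM peaks below them. In CACNA1S a GM peak of 120 bases (3.58) and a DM peak of 121 bases (1.72), both in exon 42 of 43, shared 1 base.

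JPH1 had the highest fold enrichment of the members. In GM it had 3 peaks, 1 of 748 bases at the 5′ end with a fold enrichment of 44.6, 1 of 1315 bases at 4.18 and 1 of 330 bases in the 3′ UTR at 4.65. In DM a single peak of 3079 bases in 5 blocks covered all 3, with a fold enrichment of 65. The GM value ranked 26th of 19739 peaks and the DM value 9th of 20790. JPH1 input was 1.53 ± 0.21 FPKM in GM and 4.39 ± 0.279 FPKM in DM, and the part of these low levels in the ratios was not tested. The triadin peak, found in DM only, covered 1906 bases in 4 blocks from the first to the last base of the gene at a fold enrichment of 5.32. TRDN had 0.637 ± 0.171 FPKM in GM, and the part of this low level in the lack of a GM peak was not tested.

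Of the 14 GM peaks of members other than ATP2A1, 8 shared a DM peak with another GM peak (2 in ATP2A2, 3 in RYR1 and 3 in JPH1), a share of 57.1% beside 30.3% for all GM peaks. Peaks of 1 gene are not independent, and these 8 came from 3 genes. In exon bases, the members' peaks covered 7746 in GM and 12305 in DM, of which RYR1 had 1954 and 3242 and JPH1 2393 and 3079. The same sum was not taken over the whole lists, which held 19739 peaks in GM and 20790 in DM. A trait of these genes is thus not read from it. By the paper, the first GM library had the fewest reads of the IP libraries, and the part of depth was not tested.

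Only 5 member peaks formed one-to-one pairs, with log2 ratios of fold enrichment (DM over GM) of 0.85 in SLN, -0.10 and -0.41 in RYR1, -0.11 in CASQ2 and -1.06 in CACNA1S. Their median was -0.11, beside 0.07 for all 10239 pairs. SLN was past 1.5 upwards and CACNA1S downwards, the latter a change that 10.8% of all pairs passed, and the CACNA1S pair rests on the 1 shared base. The ATP2A1 3′ UTR peaks, with a log2 ratio of -1.06, are not among these pairs. Each of them also shared 57 bases with the other group's peak placed with RABEP2. RYR1 and CASQ2, whose FPKM ratios were 3.77 and 4.71, had pairs within 1.5-fold of equal enrichment.

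**Figure D5:**
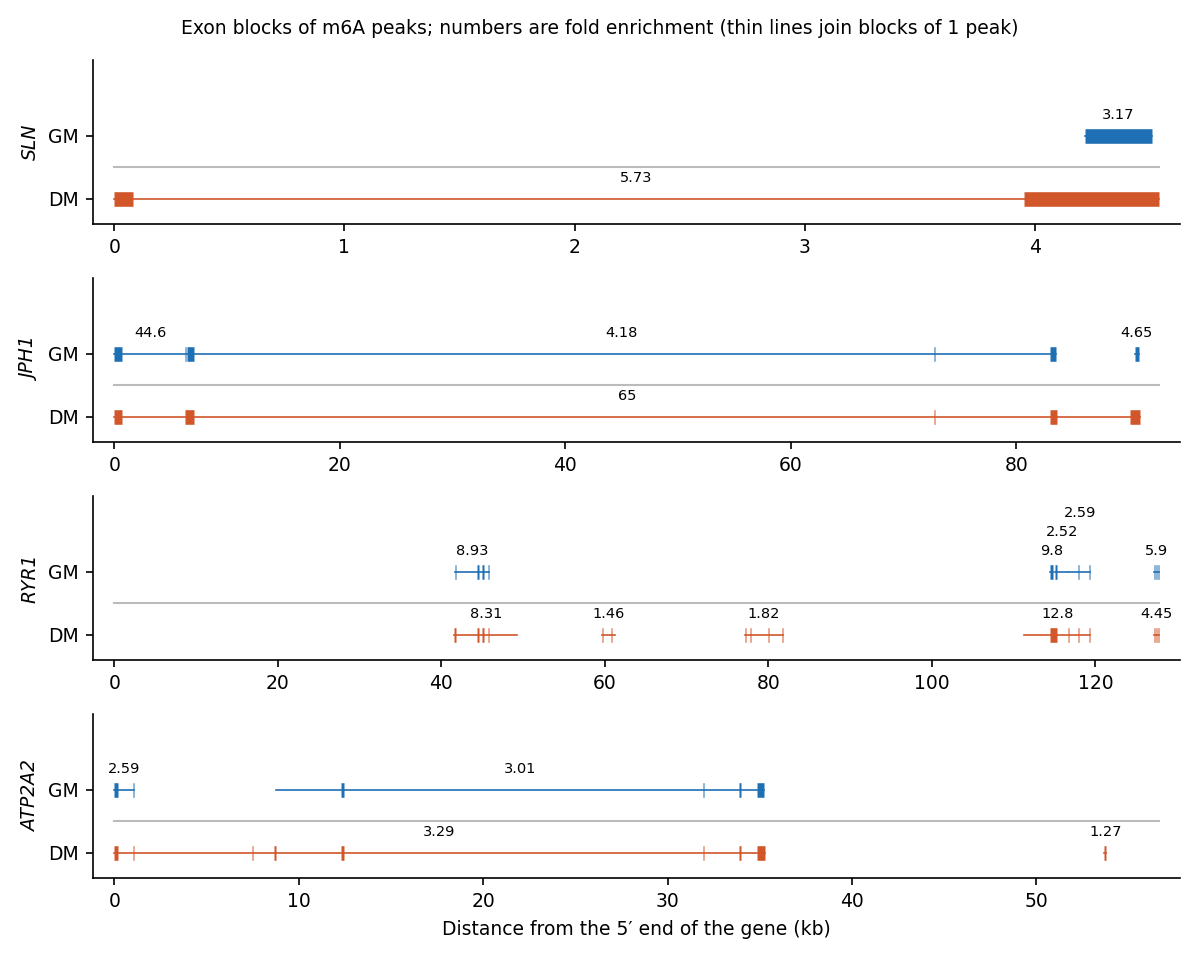
Exon blocks of the m6A peaks of SLN, JPH1, RYR1 and ATP2A2 against distance from the 5′ end of the gene in kb, with GM in blue above and DM in orange below; thin lines join the blocks of 1 peak and numbers are its fold enrichment. The SLN block of GM lies inside the longer DM peak, and the 3 GM peaks of JPH1 lie inside 1 DM peak with a fold enrichment of 65.

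The authors' term annotation, which no choice above used, gave a sarcoplasmic reticulum term to 7 of the 9 genes, a calcium ion term to 8, a muscle contraction term to 5 and the KEGG calcium signaling pathway to 4 (ATP2A1, ATP2A2, RYR1 and CACNA1S). SLN carried none of the 4. The 34 other tested genes of calcium handling had a peak in 85.3% of cases in GM and 82.4% in DM, beside 70.9% and 78.7% of all tested genes.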

How the data were processed

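Input RNA-seq and m6A-seq of 12 samples (GM and DM, each with 3 input and 3 IP libraries) were used. FPKM values, deposited for the 6 inputs, were made by the authors with StringTie after HISAT2 alignment to ARS-UCD1.2; trimming is named differently in the labels and the methods, and tool versions are not given in the sources used here. Peaks, 1 list per group, were called by the authors with exomePeak on pooled libraries and annotated with ChIPseeker. Fold enrichment, a ratio on a linear scale of IP to input within the peak, is as the authors deposited it. Peak p-values were deposited without adjustment, and the score column deposited by the authors repeats them. Separate deposited columns hold the log10 of these p-values and of the false discovery rate.

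The members and gene lists were chosen with earlier results of these data known. The 12302 genes whose mean reached 0.5 FPKM were fitted with limma 3.58.1 (R 4.3.3) after log2(FPKM + 1) transformation, with a variance trend and without a replicate block. Calls needed p under 0.05 and a fold over 1.5, the thresholds of the study, and adjusted p-values are Benjamini-Hochberg over all tested genes. The study applied these thresholds with edgeR, so the calls here are not those of the study. Genes named are the members, the called genes of each list, the gene with the highest mean of a list with no call, and the 4 genes nearest to SLN. Markers, genes overlapping a peak, and PLN, FKBP1A, CAV3, ASPH, ATP2A3, RYR2 and RYR3 were named outside that rule. Peaks were paired in Python 3.11.15 (pandas 2.3.3, numpy 2.4.6) when their exon blocks shared at least 1 base on the same annotated strand. Symbols missing from the table were sought by NCBI gene number in RefSeq's ARS-UCD2.0 gene table, used for names only. Read depth behind a value is unknown from FPKM and from the peak lists, so no counting interval is given. FPKM summed to 415740 to 434458 in the GM and 386437 to 390827 in the DM libraries, and Pearson's r of log2 values across genes was 0.991 to 0.996 within GM, 0.994 to 0.995 within DM and 0.964 to 0.967 between them. No sequence is printed, as none was used here.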

Additional observations from a re-analysis of the deposited data

How the results depend on the processing

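No member and no called gene of the calcium handling lists changed direction under any alternative run, whereas the median of all tested genes did. Member peak ratios are not part of that check, since their fold enrichments are fixed and the runs only dropped, re-paired or centred them. The members called higher numbered 5 under each left-out library, and 7 both on TPM and with a pseudocount of 0.1. Their median log2 difference was 0.84 with a pseudocount of 0.1, 0.92 with a filter at 1 FPKM, 0.88 on TPM and 0.72 to 0.78 with 1 library left out. Other calcium handling genes called lower numbered 1 with size factors and 1 on TPM, those called higher 8 on TPM, and leaving out 1 library gave 1 to 3 lower (1 without DM replicate 2) and 4 to 6 higher. The median log2 ratio of paired member peaks was -0.26 with 50% overlap, which drops the CACNA1S pair and the SLN pair (43.6% of the DM peak shared) and adds ATP2A1 pairs at -0.55 and -1.06 and an ATP2A2 pair at 0.13, giving 6 pairs. Leaving out the peaks that run past the end of ATP2A1, an alternative chosen after seeing the data, also gave 6 pairs and a median of -0.26. The median log2 difference of all tested genes turned from -0.05 on FPKM to 0.00 with size factors and 0.06 on TPM, and the share of calls that were higher was 41.3%, 48.6% and 55.1%. Same-numbered GM and DM libraries did not deviate together (r of -0.079, -0.123 and -0.208), and the main fit did not pair them. With 3 libraries per group, this check cannot show whether they were paired. With the replicate block, 1473 genes were called against 1461, the members' median stayed at 0.74, and 5 other genes were called higher and 2 lower. With 3 libraries and pooled peaks, differences in peak enrichment have no error.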
